A study of Mus musculus with 12 samples.

Results

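The data described here are the values of 10 mouse genes that are widely used as markers of astrocytes: Gfap, S100b, Glul, Slc1a2, Aqp4, Gja1, Aldoc, Sparcl1, Cd44 and Tnc. They were chosen by name, and every probe whose annotation gives 1 of these symbols was used, which came to 13 of the 21738 probes on the array, or 10 of the 15081 genes it names. Gfap, Cd44 and Tnc had 2 probes each and the other genes 1 each.

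Astrocytes are the support cells of the brain. They take up glutamate and turn it into glutamine, buffer water and potassium, couple to each other through gap junctions, and hold their shape with intermediate filaments built from GFAP. In the developing cortex the same lineage starts as radial glia, which make neurons first and astrocytes later, so several of these genes are also found in neural stem cells and in cultures grown from them. Leukaemia inhibitory factor and related cytokines drive astrocyte genes through STAT3, and Gfap is the textbook target.

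The series holds 12 two-colour oligonucleotide arrays of neurospheres, the free-floating balls that neural stem cells and their progeny form in culture, from mouse cortex of gestational day 12.5. There were 4 groups of 3 arrays: control and prominin cultures, each at 24 h and at 108 h. All groups, controls included, grew without serum in DMEM/F-12 with basic fibroblast growth factor, epidermal growth factor and leukaemia inhibitory factor. Neurosphere RNA carried Cy5 on every array, and the common Cy3 reference was RNA of whole C57/Bl6 embryos of gestational day 12, which contains brain as well as every other embryonic tissue.

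Control cultures received growth medium alone, and prominin cultures received an adenovirus carrying CD133/R-prominin1, a membrane protein of stem cell protrusions. In the series' design text the neurospheres are called GFP or prominin positive, so whether the controls carried a virus is not settled. The treatment text names 108 h for all prominin cultures; the times used here are those of the sample titles. The labels give neither the strain of the cortex donors nor their number, nor say whether the 3 arrays of a group came from separate cultures, and p-values then measure only the spread between these arrays. The arrays measured whole cultures, so fewer astrocytes and less RNA of a gene per cell cannot be told apart.

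Each value is a log2 ratio between the neurosphere RNA and the embryo reference, given relative to the median probe of its array; the ratio is a difference from the embryo and not an abundance. The labels do not state which dye is the numerator. Neurosphere over embryo is likely, from the dyes and because genes of red blood cells (list median −3.93) and of embryonic tissues outside the nervous system (−5.42) lay far below the median probe; if the ratio ran the other way, every sign below would turn. Exact zeros and a top code in the deposited table were treated as missing. At 24 h an array then had 10404 to 14465 measured probes, and at 108 h it had 15944 to 16598. Of the measured values of an array, 37.2 to 68.4% at 24 h and 7.98 to 19.8% at 108 h equalled, within 6e-04, the log2 ratio of whole numbers up to 20, here called a ratio of small whole numbers. The mouse Prom1 probe, which the labels do not tie to the introduced sequence, read 1.72 and 0.66 in the 24 h controls against −1.62 and −0.45 in the 24 h prominin-labelled arrays, and −2.51, −2.33 and −4.34 against −0.11 and −0.85 at 108 h. It therefore lay in the labelled direction at 108 h and against it at 24 h, and neither difference passed the test (limma adjusted p = 0.998 and 0.717).

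Start-site windows of 300 bases from RefSeq (GRCm38.p6) were searched for 8 of the 10 genes, with 10 starts. No window of Aqp4 or Sparcl1 was searched, so the counts of member starts below do not cover these genes. Those of Gfap and S100b are shown because these genes had the highest ratios among the members, and the capitals in the Gfap window mark a match to TTCNNNGAA, the palindrome that STAT proteins bind, at bases 249 to 257 of the window. The Gfap window is chr11:102897151-102897450 on the minus strand and the S100b window is chr10:76253586-76253885 on the plus strand.
Gfap: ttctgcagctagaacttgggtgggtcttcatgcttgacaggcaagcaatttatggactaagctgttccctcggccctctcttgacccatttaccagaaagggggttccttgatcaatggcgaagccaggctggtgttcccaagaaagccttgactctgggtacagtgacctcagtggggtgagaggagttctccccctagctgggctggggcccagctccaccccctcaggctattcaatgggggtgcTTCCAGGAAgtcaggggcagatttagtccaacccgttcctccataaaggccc
S100b: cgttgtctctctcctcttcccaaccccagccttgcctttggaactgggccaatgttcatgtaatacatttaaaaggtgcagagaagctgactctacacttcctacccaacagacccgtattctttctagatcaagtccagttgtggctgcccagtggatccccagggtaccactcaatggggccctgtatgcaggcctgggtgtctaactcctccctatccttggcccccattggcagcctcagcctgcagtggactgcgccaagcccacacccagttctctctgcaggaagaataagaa
The same letters were found in 2 of the 10 starts, 1 of Gfap and 1 of Aldoc, and in 2726 of 32851 RefSeq windows of this length (8.3%). The full palindrome of nuclear factor I, another factor of astrocyte genes, was in 0 of the 10 starts and in 0.0365% of all windows. A match is a description of the letters, and its absence says only that these letters are not in the window.

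Gfap, S100b, Glul and Cd44 stood far above the median probe on every array. Of the 13 member probes, 5 were measured on all 12 arrays (38.5%, against 20.8% of all probes). The 4 named probes were above the median probe on each of those arrays, where 13.2% of the 4532 probes measured on all arrays were; 14.8% were below it on each, which is the share to compare with if the ratio ran the other way. Counting the partly measured probes, 6 of 13 were above the median probe on every array that measured them.

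Gfap, the glial intermediate filament and the classical astrocyte marker, averaged 8.56 ± 0.88 (SD, n = 12 arrays) with the K01347 probe. That is the sixth highest mean ratio among the 4532 probes (rank 6), between the probes of E130119H09Rik (8.62) and Gprc5c (8.38). The probes above it, which also include Gpbp1l1, Brip1, Il12rb1 and Hspe1-ps6, ran up to 9.63. Its values were 8.33, 10.04 and 8.09 in the 24 h controls, 7.69, 8.94 and 9.22 in the 24 h prominin-labelled arrays, 8.55, 6.69 and 8.10 in the 108 h controls and 9.03, 9.46 and 8.58 in the 108 h prominin-labelled arrays. At 24 h the groups overlapped; at 108 h all 3 prominin-labelled values were above all 3 controls.

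S100b, a calcium-binding protein of mature astrocytes and some oligodendrocyte precursors, averaged 7.54 ± 0.71 (n = 12) and ranked 12. The controls read 7.42, 9.18 and 8.06 at 24 h and 7.57, 7.58 and 7.44 at 108 h. The prominin-labelled arrays read 7.16, 7.21 and 7.19 at 24 h and 7.65, 6.12 and 7.91 at 108 h. The 24 h prominin-labelled values were close together and all under the 24 h controls, while at 108 h the control values lay inside the prominin-labelled range.

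Glul, the glutamine synthetase that astrocytes use to detoxify glutamate and ammonia, averaged 5.29 ± 1.09 (n = 12) and ranked 38. The controls read 3.71, 5.10 and 5.86 at 24 h and 4.51, 6.06 and 6.44 at 108 h; the prominin-labelled arrays read 3.45, 5.80 and 5.65 at 24 h and 4.12, 6.60 and 6.18 at 108 h. In every group 1 array, labelled replicate 1, was lower than the other 2, and the 4 groups overlapped.

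Cd44, the hyaluronan receptor found on astrocyte-committed precursors and reactive astrocytes, averaged 4.71 ± 1.33 (n = 12) with the M30655 probe and ranked 55. The controls read 6.21, 5.38 and 3.88 at 24 h and 4.70, 7.34 and 4.71 at 108 h. The prominin-labelled arrays read 5.90, 3.58 and 3.63 at 24 h and 2.79, 3.44 and 4.95 at 108 h. With this probe the groups overlapped at both times.

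Gja1, which encodes the gap junction protein connexin 43 and is shared by radial glia, astrocytes and many embryonic tissues outside the brain, lay near the median probe. It averaged 0.47 ± 1.39 (n = 12), with 63.2% of the 4532 probes below it. It read 0.42, 0.64 and −1.13 in the 24 h controls, −0.46, 3.43 and 1.85 in the 24 h prominin-labelled arrays, 0.90, −0.47 and 1.79 in the 108 h controls and −1.08, 0.66 and −0.92 in the 108 h prominin-labelled arrays. It changed sign within every group.

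In order of mean ratio these 5 genes ran Gfap, S100b, Glul, Cd44 and Gja1. Gfap was above S100b on 11 of 12 arrays, with a mean gap of 1.02, and S100b above Glul on 11 of 12, with a gap of 2.25. Glul and Cd44 were not separated beyond their spread: the gap was 0.58 and Glul was higher on 7 of 12 arrays. Cd44 was above Gja1 on all 12.

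**Figure D1:**
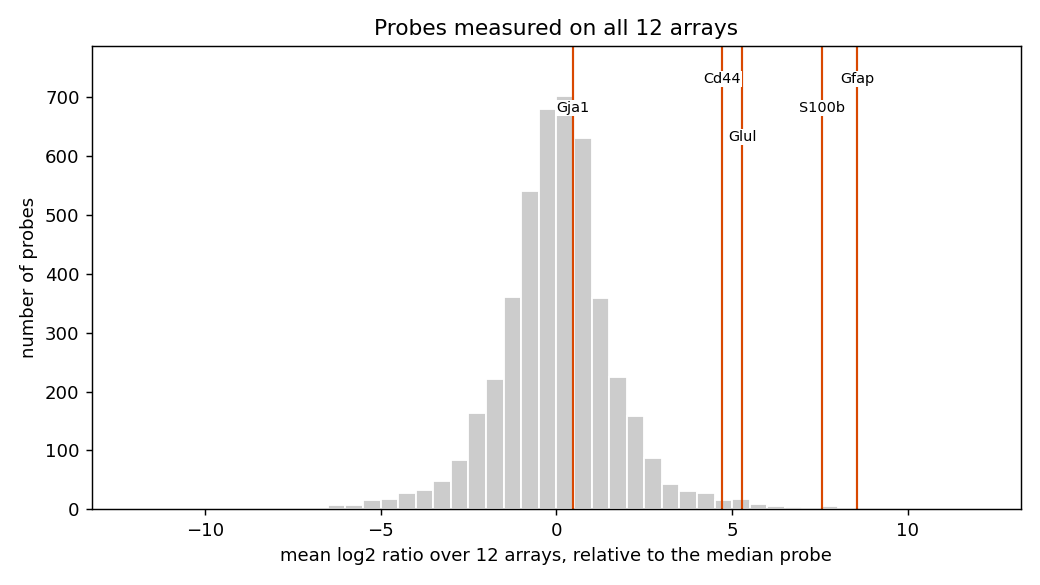
Histogram of the mean log2 ratio, relative to the median probe, of the 4532 probes measured on all 12 arrays, with lines at the 5 member probes among them. Gfap (8.56), S100b (7.54), Glul (5.29) and Cd44 (4.71) sit in the right tail and Gja1 (0.47) near the centre.

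The remaining members were read on fewer arrays. Slc1a2, the astrocyte glutamate transporter GLT-1, averaged 2.85 ± 1.95 (n = 9). It read 1.76 and 2.47 in the 24 h controls, 4.74 in 1 prominin-labelled array at 24 h, 3.79, 4.34 and 3.15 in the 108 h controls and 4.88, −1.27 and 1.81 in the 108 h prominin-labelled arrays, with 2 exact zeros and 1 top code at 24 h. The 108 h prominin-labelled values spread on both sides of the controls.

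Aqp4, the water channel of astrocyte end-feet, averaged 2.89 ± 1.34 (n = 8). It read 3.28 in 1 control array at 24 h, 4.28, 5.12 and 3.26 in the 108 h controls, 2.38, 1.72 and 1.25 in the 24 h prominin-labelled arrays and 1.82 in 1 prominin-labelled array at 108 h. The 4 control values were all above the 4 prominin-labelled ones, and the other 4 arrays, 2 of each culture, held exact zeros. Of its 8 values, 4 were ratios of small whole numbers.

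Aldoc, the brain isoform of the glycolytic enzyme aldolase, averaged 0.93 ± 2.48 (n = 9). It read 1.04, 1.22 and 2.47 in the 24 h controls, 0.53 and 0.14 in the 24 h prominin-labelled arrays, 0.71 and 2.41 in the 108 h controls, and 4.49 and −4.63 in the 108 h prominin-labelled arrays. Those last 2 values were the highest and the lowest of all, and its residual SD of 2.98 was larger than that of 98.8% of fitted probes.

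Sparcl1, the secreted synapse-promoting protein hevin, was measured on only 5 arrays, and 3 of these values were ratios of small whole numbers. It held exact zeros in all 24 h controls and read 0.14 and −0.47 in the 24 h prominin-labelled arrays, −0.91 and 4.48 in the 108 h controls and 2.51 in 1 prominin-labelled array at 108 h. These values show no order by group.

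Tnc, the matrix protein tenascin-C of radial glia and immature astrocytes, averaged 0.85 ± 1.55 (n = 11) with the AJ236880 probe. The controls read 1.77 and 1.68 at 24 h and 0.81, 4.24 and 0.54 at 108 h. The prominin-labelled arrays read 0.06, 1.31 and 1.09 at 24 h and 0.59, −1.12 and −1.59 at 108 h. Its second probe, NM_011607, averaged −4.83 ± 2.00 (n = 11) and was below the median probe on 11 of 11 arrays, from −7.62 to −1.85.

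**Figure D2:**
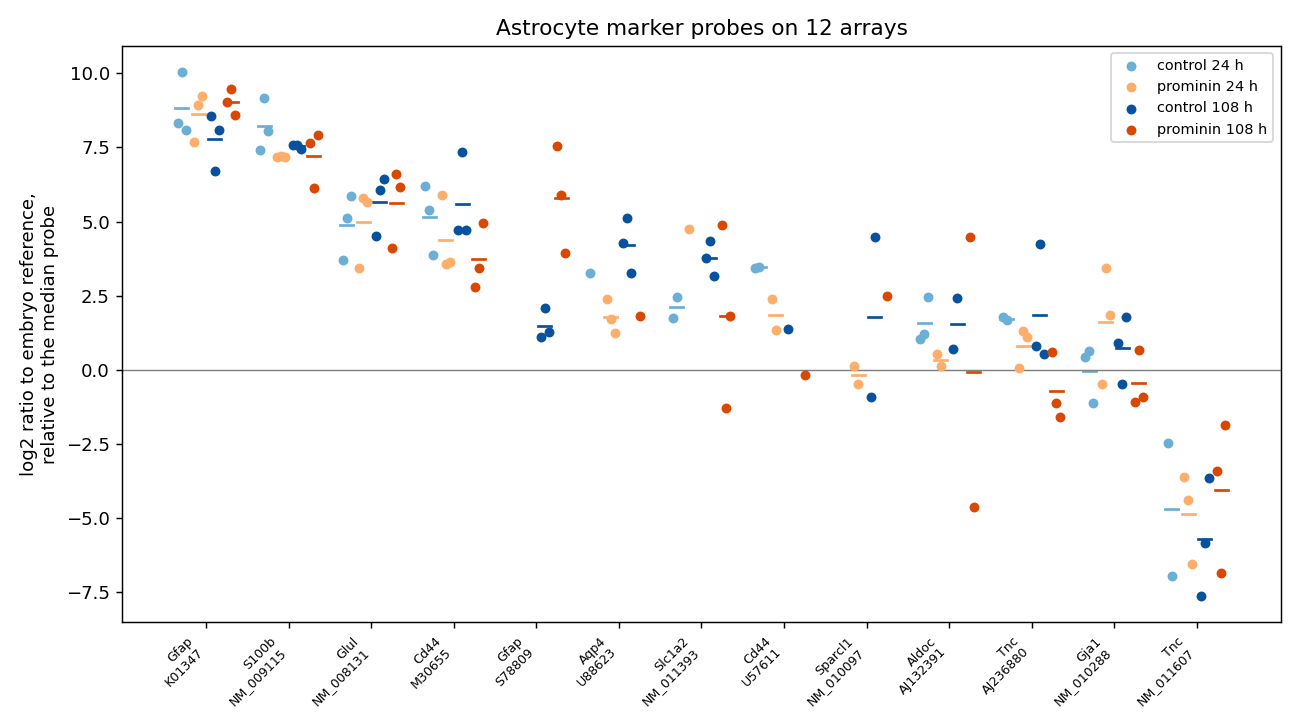
Log2 ratio of each of the 13 member probes, relative to the median probe of the array, on the 12 arrays, coloured by group; exact zeros and the top code are not drawn. The first Gfap probe, S100b, Glul and the M30655 probe of Cd44 stay above 0 in all groups, while Aldoc, Sparcl1, Slc1a2 and the second Gfap probe spread widely or are measured on few arrays.

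The 2 probes of a gene did not give the same ratio. The second Gfap probe, S78809, was measured on the 6 arrays of 108 h alone; of the 24 h arrays, 1 held the top code and 5 exact zeros. It read 1.10, 2.09 and 1.27 in the controls and 7.55, 5.89 and 3.94 in the prominin-labelled arrays. On those 6 arrays the K01347 probe was higher by 1.49 to 7.45 (median 4.62), the widest gap being in a control array and the narrowest in a prominin-labelled one. The M30655 probe of Cd44 exceeded the U57611 probe on 6 of 6 arrays, by a median of 2.80. U57611 averaged 1.97 ± 1.40 (n = 6), and 4 of its 6 values were ratios of small whole numbers. It read 3.44 and 3.47 in the 24 h controls and 2.38 and 1.33 in the 24 h prominin-labelled arrays. At 108 h it read 1.38 in 1 control array and −0.15 in 1 prominin-labelled array. Its cultures did not overlap at either time (24 h two-sided exact permutation p = 0.333, the smallest that 2 against 2 allows). For Tnc the AJ236880 probe exceeded NM_011607 on 10 of 10 arrays, by 0.26 to 10.06 with a median of 5.72, which put the probes of the same gene on opposite sides of the median probe. The table gives no probe sequence, so which transcript each probe reads is not known here.

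**Figure D3:**
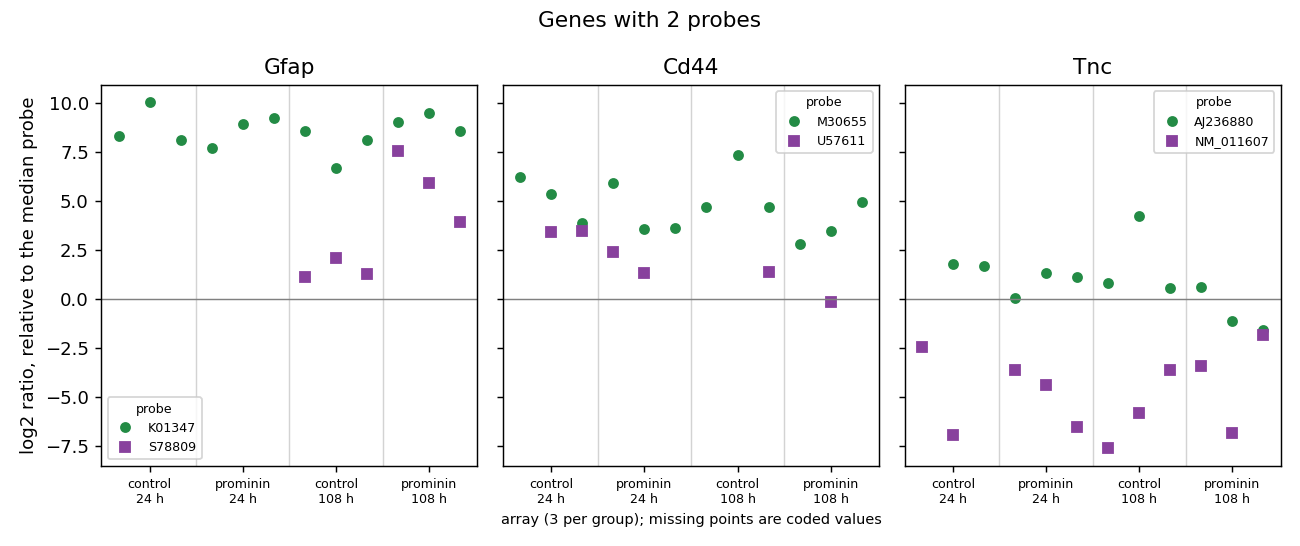
Log2 ratios of both probes of Gfap, Cd44 and Tnc on the arrays in order of group, relative to the median probe. Colour marks the probe, and coded values are not drawn. Where an array measured both, the first probe (K01347, M30655 or AJ236880) was higher, by medians of 4.62, 2.80 and 5.72.

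The study's first question was what the prominin virus did to the cultures. Of the 13 member probes, 8 (of 7 genes) had at least 2 values in every group and entered limma with 9155 probes in all: Gfap K01347, S100b, Glul, Gja1, Aldoc, Cd44 M30655 and both Tnc probes. The other 5 could not pass that filter and are given as values.

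At 24 h no fitted member differed between prominin-labelled and control arrays after adjustment (0 of 8 called, adjusted p 0.998 to 0.999), against 0% of 9155 probes. At an unadjusted p under 0.05 the members numbered 0, against 4.58% of all probes. Of the 8, 2 were higher and 6 lower in the prominin-labelled arrays, with a median difference of −0.50 where all probes had −0.10 and 54% lay below 0. S100b was lower by 1.04 (difference −1.04, SE 0.64, 95% interval −2.44 to 0.37), and its 3 prominin-labelled values were under its 3 controls (two-sided exact permutation p = 0.1, the smallest that 3 against 3 allows). Aldoc (3 control and 2 prominin-labelled values) and the AJ236880 probe of Tnc (2 and 3) also did not overlap, each with a two-sided exact permutation p of 0.2. Over all arrays, 4 of the 9 Aldoc values and 5 of the 11 of that Tnc probe were ratios of small whole numbers. With S100b they made 3 of 8, all lower in the prominin-labelled arrays, where 9.99% of all probes did the same. Without centring the S100b difference was −0.36 and all 3 of these probes overlapped; without control replicate 2 it was −0.55. The Gfap difference was −0.20 (SE 0.74, 95% interval −1.83 to 1.42), a direction that turned with 3 of the other scalings (0.47 without centring), and that of Glul 0.08 (SE 0.94, −1.98 to 2.13). The Gja1 difference was 1.63 (SE 1.01, −0.59 to 3.85), and it was 0.72 without prominin replicate 2 and 2.67 without prominin replicate 1. These intervals leave room for a change of more than 1 on the log2 scale in either direction for Gfap and Glul.

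At 108 h again 0 of 8 were called (0% of all probes), and 1 had an unadjusted p under 0.05, where 6.82% of all probes did. Gfap K01347 averaged 9.03 ± 0.44 in the prominin-labelled arrays and 7.78 ± 0.97 in controls (n = 3 each), a difference of 1.25 (SE 0.74, 95% interval −0.38 to 2.87, adjusted p = 0.755; exact p = 0.1). It was the 1 fitted member whose groups did not overlap, as did 7.85% of all probes in that direction. That separation was absent from the deposited values: without centring the difference was 0.17 and the groups overlapped, at 6.26 to 7.68 against 5.85 to 7.24, and without control replicate 2 the centred difference was 0.70. The second Gfap probe went the same way with a larger gap: 1.49 ± 0.53 in controls and 5.79 ± 1.80 in prominin-labelled arrays, a difference of 4.31 (exact p = 0.1, the smallest possible), and it kept the order without overlap in each alternative that could give a value, at 3.23 to 5.23.

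Other members lay lower in the prominin-labelled arrays at 108 h without passing the test. The AJ236880 probe of Tnc averaged −0.70 ± 1.15 there and 1.87 ± 2.06 in controls (n = 3 each). Its difference of −2.57 (SE 1.00, 95% interval −4.79 to −0.35) gave the 1 unadjusted p under 0.05, 0.0274, with an adjusted p of 0.717, and without control replicate 2 the difference was −1.38. The other Tnc probe had the opposite sign, 1.65 (SE 1.59, adjusted p = 0.875). Cd44 averaged 3.73 ± 1.11 against 5.58 ± 1.52, a difference of −1.86 (SE 1.00, −4.04 to 0.32, adjusted p = 0.738), which was −0.98 without control replicate 2. Gja1 differed by −1.19 (SE 1.01, adjusted p = 0.849), S100b by −0.31 (SE 0.64, adjusted p = 0.965) and Glul by −0.04 (SE 0.94, −2.10 to 2.02). Without centring, the differences were −3.64 for that Tnc probe, −2.94 for Cd44, −2.27 for Gja1 and −1.38 for S100b. The members counted 2 higher and 6 lower, with a median of −0.75 where all probes had 0.004 and 49.9% lay below 0. The members' median was −1.83 without centring and −1.17 to −0.28 without single arrays, the value nearest 0 being that without control replicate 2 of 108 h. In the same comparisons the embryo list, genes of tissues outside the nervous system, had 8 of 8 fitted probes lower at 24 h (median −1.02) and 8 of 8 higher at 108 h (0.94), and the erythroid list 4 of 4 higher at 108 h (1.99), with none called; their part in the members' values was not tested. Array medians of these lists were −3.81 or less for embryo and −1.18 or less for erythroid.

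**Figure D4:**
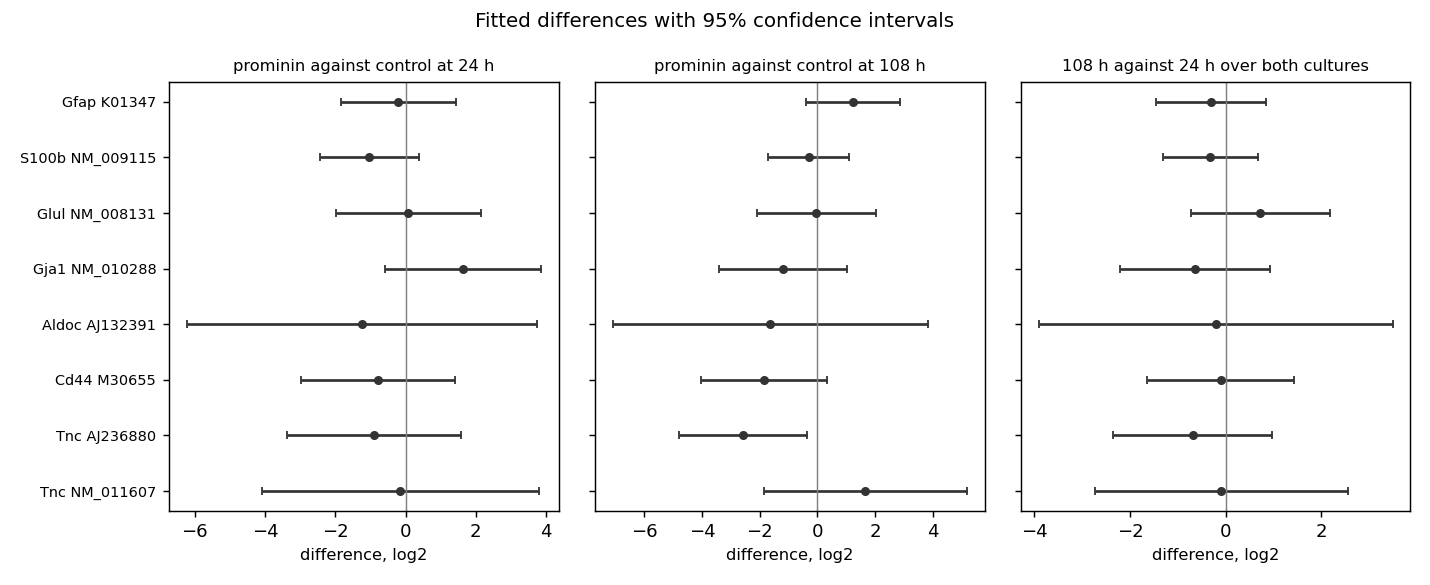
Differences of the 8 fitted member probes in log2 ratio with their 95% intervals from limma, for prominin-labelled against control arrays at 24 h and at 108 h and for 108 h against 24 h over both cultures. All intervals but that of the first Tnc probe at 108 h (−4.79 to −0.35) cross 0.

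The change of the prominin difference between the times, its interaction, was also called for 0 of 8 members and 0% of all probes (adjusted p 0.817 to 0.992; 0 at an unadjusted p under 0.05, against 5.95%). Gja1 had −2.82 (SE 1.43, unadjusted p = 0.0741), being higher in prominin-labelled arrays at 24 h and lower at 108 h, and Gfap had 1.45 (SE 1.05, adjusted p = 0.849), which was −0.30 without centring. With both times together 0 of 8 were called (0% of all probes), and the AJ236880 probe of Tnc had −1.74 (SE 0.75, 95% interval −3.40 to −0.07, unadjusted p = 0.0423, adjusted p = 0.959), where 5.06% of probes had an unadjusted p under 0.05. Cd44 had −1.32 (SE 0.70, −2.87 to 0.22), S100b −0.67 (SE 0.45, −1.67 to 0.32) and Gfap 0.52 (SE 0.52, adjusted p = 0.960).

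Aqp4 could not be fitted, having 1 value in each of 2 groups. Over both times its 4 control values averaged 2.19 more than its 4 prominin-labelled ones (two-sided exact permutation p = 0.0286, 1 of 13 such tests on the unfitted probes). With arrays permuted within their time the difference was −1.94 and the exact p 0.0625, the smallest that the 16 arrangements allow. With the exact zeros kept as measurements the groups overlapped and the difference was −1.32.

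The second question was how the cultures changed between 24 h and 108 h. No fitted member was called over both cultures together (0 of 8, adjusted p 0.777 to 0.986), where 0.0546% of all probes were; 0 had an unadjusted p under 0.05, against 9.7%. Glul was the 1 fitted member that lay higher at 108 h, by 0.72 (SE 0.66, 95% interval −0.73 to 2.18), and it lay at −0.39 under quantile normalization. Of the unfitted probes, Aqp4 had 1.46 (4 values per time, exact p = 0.143) and Sparcl1 2.19 (2 values against 3, exact p = 0.4). Cd44 U57611 had −2.04 (4 values against 2, exact p = 0.2) and Slc1a2 −0.21 (3 against 6, exact p = 0.917). The Aqp4 values were 1 control and 3 prominin-labelled at 24 h, and 3 and 1 at 108 h. With arrays permuted within their culture its difference was 0.49 (exact p = 0.5). The 24 h values of Sparcl1 all came from prominin-labelled arrays. Gfap lay at −0.31 (SE 0.52, −1.47 to 0.84) and S100b at −0.33 (SE 0.45, −1.32 to 0.67). Changes of more than 1.47 in Gfap, or of 1.32 in S100b, lay outside those 95% intervals. The fitted members counted 1 higher and 7 lower with a median of −0.26, all probes having −0.04 with 51.7% below 0, and no fitted member separated the 6 arrays of 24 h from the 6 of 108 h (1.86% of all probes did). Within controls 0 members were called (0% of probes; at an unadjusted p under 0.05, 0 members against 6.94%), with 4 higher and 4 lower where 52.5% of probes were lower. Within prominin-labelled cultures 0 were called (0.0218% of probes; 0 at an unadjusted p under 0.05, against 8.81%), again 4 and 4, with 49.7% of probes lower; there Gja1 had −2.06 (SE 1.01, adjusted p = 0.615).

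Further astrocyte genes were read in 4 lists. The transport and metabolism list had the highest median ratio of the 4, 2.12 over 15 measured genes (11 above the median probe), while the 10 members had 2.87 (9 above). Slc25a18, a mitochondrial glutamate carrier, averaged 7.17 (n = 9 arrays). Atp1b2, the glial sodium pump subunit, averaged 7.16 with its higher probe (n = 12) and 2.30 with the other (n = 5). Secreted and matrix genes had a median of 0.63 over 14 genes, with Bcan, the proteoglycan brevican, at 5.76. Ncan, neurocan, was at 3.57 with its highest probe, the others being at 2.05 and 1.56. Regulators of astrocyte fate had 0.27 over 15 genes, with Stat3 at 3.64 and Sox9 at 2.39. The gliogenic factor Nfia was at 2.56 with its higher probe (n = 5 arrays) and at 0.35 with the other (n = 12). Genes of reactive astrocytes had 0.16 over 16, with Timp1, an inhibitor of matrix proteases, at 4.60 and Vim, vimentin, at 2.76.

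Apoe, the lipid carrier that astrocytes secrete, was the 1 probe of these 4 lists that passed the test. It was higher at 108 h by 2.56 over both cultures (SE 0.37, adjusted p = 0.0409). The 24 h groups averaged −1.46 ± 0.55 in controls and −1.41 ± 0.24 in prominin-labelled arrays, and the 108 h groups 1.41 ± 0.38 and 0.85 ± 0.28 (n = 3 each). All 6 arrays of 108 h, at 0.68 or more, were above all 6 of 24 h, at −0.90 or less. The call was lost in 16 of 25 alternatives (adjusted p 0.00573 to 0.239), which included leaving out any 1 array of the 108 h groups, while the difference stayed between 2.37 and 2.71. Apoe is also made by microglia, and of the 3 fitted probes of the microglia list Laptm5 had 2.20 (SE 0.82, unadjusted p = 0.0217, adjusted p = 0.412), Ptprc −0.09 and Aif1 −0.20; the part of such cells in the Apoe value was not tested.

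The next genes of these lists by p did not pass. Clu, the secreted chaperone clusterin, had 2.52 (SE 0.42, adjusted p = 0.0570) and Thbs1, thrombospondin 1, −3.93 (SE 1.09, adjusted p = 0.299), and the secreted list as a whole had 4 probes higher and 8 lower of 12, with 1 called. In the transport and metabolism list, Mt1, a metallothionein, had 2.48 (SE 0.41, adjusted p = 0.0570), Mt3, the brain metallothionein, −1.55 (SE 0.48, adjusted p = 0.299) and the glutamate transporter Slc1a3 −0.53 (SE 0.41) with the U75378 probe and 0.08 (SE 0.70) with L19565, with 7 higher, 2 lower and 0 called of 9. Among fate regulators, Id3 had 1.94 (SE 0.50, adjusted p = 0.263), Hes5, a Notch target, 3.01 (SE 1.18, adjusted p = 0.469) and Nfix −1.81 (SE 0.84, adjusted p = 0.527), with 9 higher, 4 lower and 0 called of 13. Among reactive genes Osmr, the oncostatin M receptor, had −1.88 (SE 0.49, adjusted p = 0.250) and Emp1 −1.68 (SE 0.70, adjusted p = 0.470). Hspb1, a small heat shock protein, had 1.05 (SE 0.46, adjusted p = 0.487), and the list had 4 higher, 6 lower and 0 called of 10. In the prominin comparison at 108 h none of the 4 lists had a call, and their medians were −0.72 for transport, −0.44 for secreted, −0.18 for fate and −0.32 for reactive genes. At 24 h, also with no call, they were 0.79, 0.02, 0.34 and −0.27.

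Markers of other cells showed where the members stood. The oligodendrocyte lineage list had a median ratio of 1.79 over 12 genes, 11 of them above the median probe, led by probes of the transcription factor Olig1 (6.06), myelin basic protein Mbp (5.93 with the highest of its 3 probes, the others being at 2.59 and 0.001) and the transcription factor Olig2 (5.05). The neuron list had −0.61 with 5 of 17 genes above the median probe, microglia −0.53 with 3 of 10, endothelium and mural cells −2.28 with 1 of 10 and fibroblasts and meninges −4.70 with 0 of 9. On single arrays the members' median ran from 1.72 to 4.41 and the fibroblast median from −7.09 to −3.93, so these medians did not overlap. Single genes did: the lowest member gene, Tnc, averaged −1.99 over its 2 probes, and the highest fibroblast gene, Pdgfra, −0.45. Pdgfra is also in the oligodendrocyte list, and its probes were at 2.74 and −3.63. The next fibroblast gene, Lum, was at −3.63, below every member gene. The oligodendrocyte medians, at 0.95 to 3.92, overlapped those of the members. The labels give cortical neurospheres and name no astrocyte or oligodendrocyte culture.

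**Figure D5:**
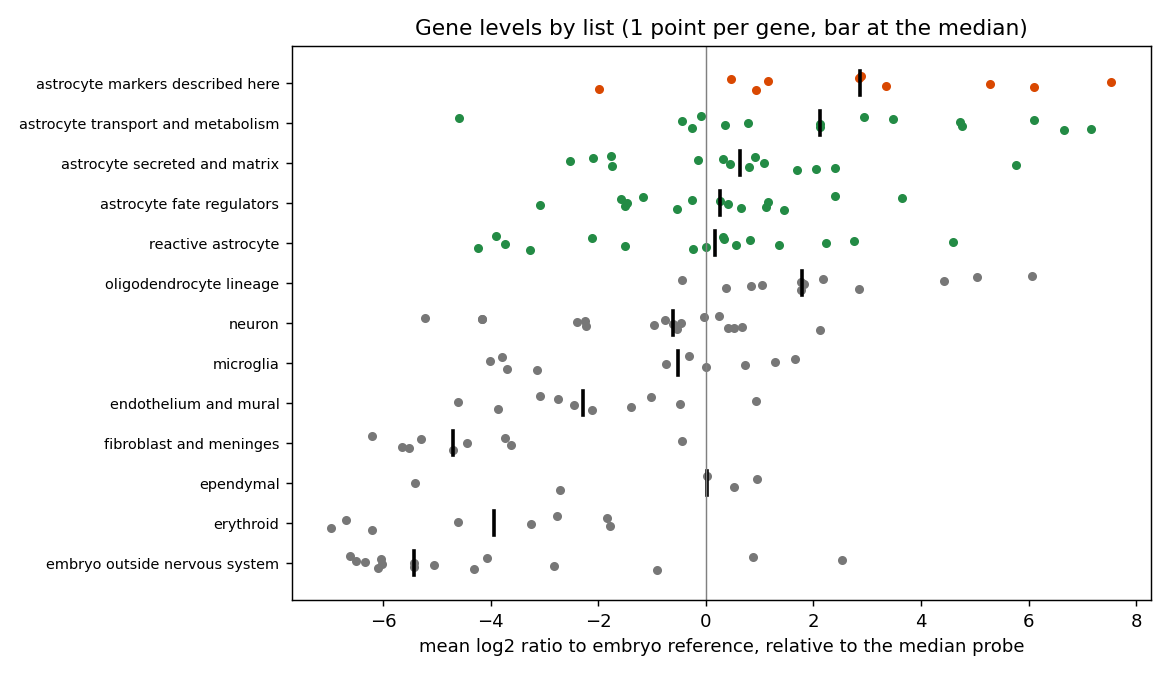
Mean log2 ratio of each gene, relative to the median probe, by list, with a point per gene and a bar at the list median. Colour marks the members, the other astrocyte lists and the lists of other cells. The bars of the members (2.87) and the oligodendrocyte lineage (1.79) lie above 0, and that of the fibroblast list (−4.70) below it.

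Across the 12 arrays, the probes whose deviations lay closest to the mean profile of the 5 fully measured members were those of Selenos, Lamp1, Mark2, Hnrnpr and Commd3, at root mean square differences of 0.22 to 0.27 log2 units, against a median of 1.01 over the other probes. A flat line would have differed from the profile by 0.42. The profile ran from −0.81 on 1 prominin-labelled array of 108 h to 0.75 on 1 control array of 24 h, and likeness to it over 12 arrays is a description of their shape alone.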

How the data were processed

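Per the labels, total RNA was extracted with Trizol and RNeasy columns and labelled with dendrimers, with the same dye on all samples. The scanner and the normalization are not stated in the labels. The deposited table gives log2 ratios for 21738 probes on 12 arrays, in an unstated direction. It was not on a common scale, with array medians of −2.59 to −0.84 over the 4532 probes measured on all arrays. Exact zeros (4986 to 8794 per array) and the top code of 16.61 were set missing, and each array was centred on that median. This took out 0.68 of the prominin difference at 24 h, −1.08 at 108 h and −0.19 of the pooled time difference.

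Probes with 2 or more values in each group (9155) were fitted with limma 3.58.1 in R 4.3.3: 4 group means, 7 contrasts, moderated variance, Benjamini-Hochberg adjustment over all probes and calls made at 0.05. Residual SDs had a median of 1.19, and the median SE of the 108 h prominin difference was 0.96; the small number of arrays limits the precision. Array correlations were 0.604 to 0.783 within groups and 0.552 to 0.748 across times. Unfitted probes got two-sided exact permutation tests. Replicate numbers were tied to the arrays weakly at most. Deviations of same-numbered arrays correlated at −0.07 to 0.12, over 0.1 in 3 of 18 pairs. Their median was 0.05, against −0.02 for arrays of other numbers.

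Symbols came from a probe table, which can be old: 16620 probes had 1, 113 several and 5005 none. The members and lists were chosen with earlier results of these data known. Beyond the members, the text names from each astrocyte list up to 4 genes by smallest p for pooled time and up to 2 by highest mean of a probe, from other lists up to 3 by highest mean, and others among the 10 highest probes; Sox9 and Prom1 were named after their values were seen. The alternatives were run for Apoe after its call was seen. A list median is the median of its genes' means. Alternatives covered centring, the codes, the filter, moderation, averaging of probes, the replicate block and leaving out each array.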

Additional observations from a re-analysis of the deposited data

How the results depend on the processing

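Across 25 alternatives to the processing, the count of members called was 0 in all 7 comparisons. Without centring, levels were 6.96 for Gfap K01347, 5.94 for S100b, 3.69 for Glul, −1.13 for Gja1, 3.11 for Cd44 M30655, 0.46 for Cd44 U57611 and −0.71 for Tnc AJ236880. Without small whole-number ratios, which were 3 of its 5 values, Sparcl1 was 4.10. With the probes of a gene averaged, Gfap was 7.37, Cd44 4.08 and Tnc −1.86. Leaving out 1 array moved the levels to 8.43 to 8.73 for Gfap K01347, 2.87 to 4.15 for Gfap S78809, 0.49 to 1.62 for Aldoc and 0.32 to 1.67 for Sparcl1, and 6 to 8 member probes were then always above the median probe.

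None of the differences whose sign turned had passed the test. At 24 h, without centring, with all probes as the centre and with quantile normalization, Gfap gave 0.47, 0.13 and 0.00498, and Tnc NM_011607 0.72, 0.26 and 0.42. That Tnc probe gave −0.46 at 108 h with probes averaged, 0.21 for pooled time under quantile normalization and, for pooled prominin, −0.28 with zeros or both codes kept and −0.68 averaged. Gfap's interaction was −0.30 without centring. Glul gave −0.39 for pooled time under quantile normalization, and −0.18 and −0.094 for pooled prominin without centring and under quantile normalization. Without single arrays, ranges that crossed 0 were −0.56 to 0.41 (Gfap), −0.53 to 0.85 (Glul) and −0.76 to 0.70 (Tnc NM_011607) at 24 h, −0.65 to 0.25 (S100b) and −0.62 to 0.72 (Glul) at 108 h, −0.54 to 0.28 (Cd44), −0.63 to 0.62 (Tnc NM_011607) and −0.33 to 0.016 (Aldoc) for pooled time, and −0.27 to 0.40 (Glul) and −0.23 to 0.74 (Gja1) for pooled prominin. The cause was not tested.

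With the replicate number as a block, although same-numbered arrays correlated only weakly, 0 members were called and Tnc AJ236880 at 108 h had −2.57 (adjusted p = 0.719). Over all probes the pooled time count was 5, and 2 with the block, 34 with at least 3 values per group, 36 without moderation, 30 without small ratios, 48 with the top code kept and 2 to 9 without single arrays. With time in prominin-labelled cultures it was 2, and 1 to 21 over the alternatives. The top code kept gave 31 calls at 24 h, against 0 as reported.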
